A study of Rattus norvegicus with 6 samples.

Results

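The genes described here are 9 standard transcriptional targets of p53 and stress-inducible growth arrest genes: Cdkn1a, Mdm2, Ccng1, Bax, Bbc3, Gadd45a, Gadd45b, Gadd45g and Sesn2. They were chosen by name from a table of normalized counts, in which 7 of the 9 have a row of exactly that name among 27321 features. Bbc3, which encodes the BH3-only protein PUMA, was not analysed here, and Sesn2 is given under the RefSeq synonym RGD1566319. RNA-seq was done on the terminal part of the kidney inner medulla (IM tip) of male Sprague-Dawley rats aged 3 months and weighing about 150 g. The Control group (n = 3) received vehicle and the STZ group (n = 3) received 62.5 mg/kg streptozotocin, both by the tail vein and both taken 15 days later. Streptozotocin is a DNA-alkylating glucose analogue that kills pancreatic beta cells and makes the animal diabetic, so diabetes and exposure to the drug cannot be told apart in these samples. The labels number the libraries 1 to 3 in each group and do not say outright that each is a separate rat, so p-values measure the spread between these libraries.

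p53 is a transcription factor that is held at a low level by the ubiquitin ligase Mdm2 and is stabilised by DNA damage and other stress. Once stable it binds response elements near its targets, among them Cdkn1a (p21), which stops the cyclin-dependent kinases, and the apoptosis genes Bax and Bbc3. It also induces Mdm2, which closes a negative feedback loop. In the renal inner medulla, cells live at a high salt and urea concentration, and p53 and the Gadd45 genes are known to respond to osmotic stress there.

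The libraries held between 3412311 and 5575171 reads on genes, and 1 read was worth 0.763 to 1.11 normalized counts. A gene at 3 reads or fewer, which is 2.29 to 3.34 normalized counts depending on the library, was taken as being at the floor, and this floor covers counting error only because the cDNA was amplified by PCR without molecular identifiers. As a measure of background, the 95th percentile of 892 olfactory receptor features was 2.05, 6.10 and 8.90 normalized counts in Control 1, 2 and 3, and 1.86, 5.93 and 9.03 in STZ 1, 2 and 3. By the column headings, all 3 Control libraries were run on sequencing lane 3, whereas STZ 1, 2 and 3 were run on lanes 7, 6 and 8. Condition therefore cannot be told apart from lane. Fold changes are STZ over Control from limma on log2(normalized count + 1), a scale that understates the change of low genes, with p-values adjusted over the 13486 features whose mean was at least 5. No division by transcript length was made, and levels were therefore compared between libraries and not between genes.

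RefSeq promoter windows of the GRCr8 assembly matched 7 of the 9 genes, all but Bax and Bbc3. Each window was searched over the 250 bases before the annotated start, on both strands, for the p53 decamer, the E-box CACGTG, the TATA box TATAAA and the CCAAT box. The p53 decamer, 1 arm of the full p53 response element, was found in 3 of the 7 windows (Cdkn1a, Ccng1 and Gadd45a), and 6.64% of all 33469 windows held one. In Cdkn1a it lay 201 to 192 bases before the start, in Ccng1 232 to 223 and in Gadd45a 48 to 39. These 3 windows are shown, with the decamer in capitals, because they hold a match to the letters that p53 recognises. They lie at chr20:7150682-7150931 (plus strand), chr10:25684877-25685126 (minus strand) and chr4:97486800-97487049 (minus strand).
Cdkn1a: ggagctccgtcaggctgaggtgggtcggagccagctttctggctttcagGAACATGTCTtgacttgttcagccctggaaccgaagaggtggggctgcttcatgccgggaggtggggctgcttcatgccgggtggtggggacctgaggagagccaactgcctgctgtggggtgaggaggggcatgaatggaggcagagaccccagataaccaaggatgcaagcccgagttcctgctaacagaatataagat
Ccng1: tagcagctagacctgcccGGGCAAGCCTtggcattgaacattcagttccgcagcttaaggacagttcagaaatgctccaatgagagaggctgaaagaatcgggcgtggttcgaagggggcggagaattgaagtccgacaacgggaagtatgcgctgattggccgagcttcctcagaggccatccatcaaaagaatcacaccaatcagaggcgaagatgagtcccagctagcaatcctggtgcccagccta
Gadd45a: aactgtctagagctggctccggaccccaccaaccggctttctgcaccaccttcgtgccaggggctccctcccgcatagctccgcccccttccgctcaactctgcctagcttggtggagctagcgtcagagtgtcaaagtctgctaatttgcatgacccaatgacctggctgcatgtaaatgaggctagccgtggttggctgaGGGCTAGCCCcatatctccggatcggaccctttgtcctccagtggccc

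Gadd45b and Gadd45g both held the E-box, which 5.59% of all windows had, at 178 to 173 bases before the start of Gadd45b and 163 to 158 before that of Gadd45g. Gadd45g was the only window of the 7 with TATAAA, at 48 to 43 bases, against 12.9% of all windows. The CCAAT box was found in 6 of the 7, all but Cdkn1a, and in 34% of all windows. The windows of Gadd45b at chr7:9430719-9430968 (minus strand) and Gadd45g at chr17:13530352-13530601 (minus strand) are shown because the order of their levels within each group was the same. That choice was made after the values were seen, and a link between the motifs and the order was not tested. Capitals mark the E-box and, in Gadd45g, the TATA box. A match describes these letters and is not evidence of binding.
Gadd45b: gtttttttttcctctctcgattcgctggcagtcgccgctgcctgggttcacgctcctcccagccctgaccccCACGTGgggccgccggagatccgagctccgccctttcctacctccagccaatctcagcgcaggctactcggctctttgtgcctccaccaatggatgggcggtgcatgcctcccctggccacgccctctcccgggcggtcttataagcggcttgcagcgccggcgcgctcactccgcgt
Gadd45g: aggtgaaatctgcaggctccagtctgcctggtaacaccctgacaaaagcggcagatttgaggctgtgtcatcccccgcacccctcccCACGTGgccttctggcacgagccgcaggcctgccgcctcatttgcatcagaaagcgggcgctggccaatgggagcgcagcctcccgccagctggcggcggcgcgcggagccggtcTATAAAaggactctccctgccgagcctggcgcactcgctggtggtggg

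Cdkn1a, the cyclin-dependent kinase inhibitor p21 and the best known arrest target of p53, was at or under the floor in all 6 libraries. Its locus in the table is chr20:7379385-7385595 (rn4). Control 1, 2 and 3 had 0, 0.763 and 1.11 normalized counts and STZ 1, 2 and 3 had 0.929, 0 and 1.0, which is 0 or 1 read in each library. Both groups summed to 2 reads, each with a 95% Poisson interval of 0.242 to 7.22 reads. The level was below the olfactory receptor background in every library, and no fold was computed. No other feature overlapped the locus, and the nearest coding neighbour before it, the splicing factor gene Sfrs3 (52805 bases away), was read at 1805 ± 244 normalized counts in Control and 1341 ± 215 in STZ (SD, n = 3). At this depth a difference in Cdkn1a between Control and STZ was not detectable.

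**Figure D1:**
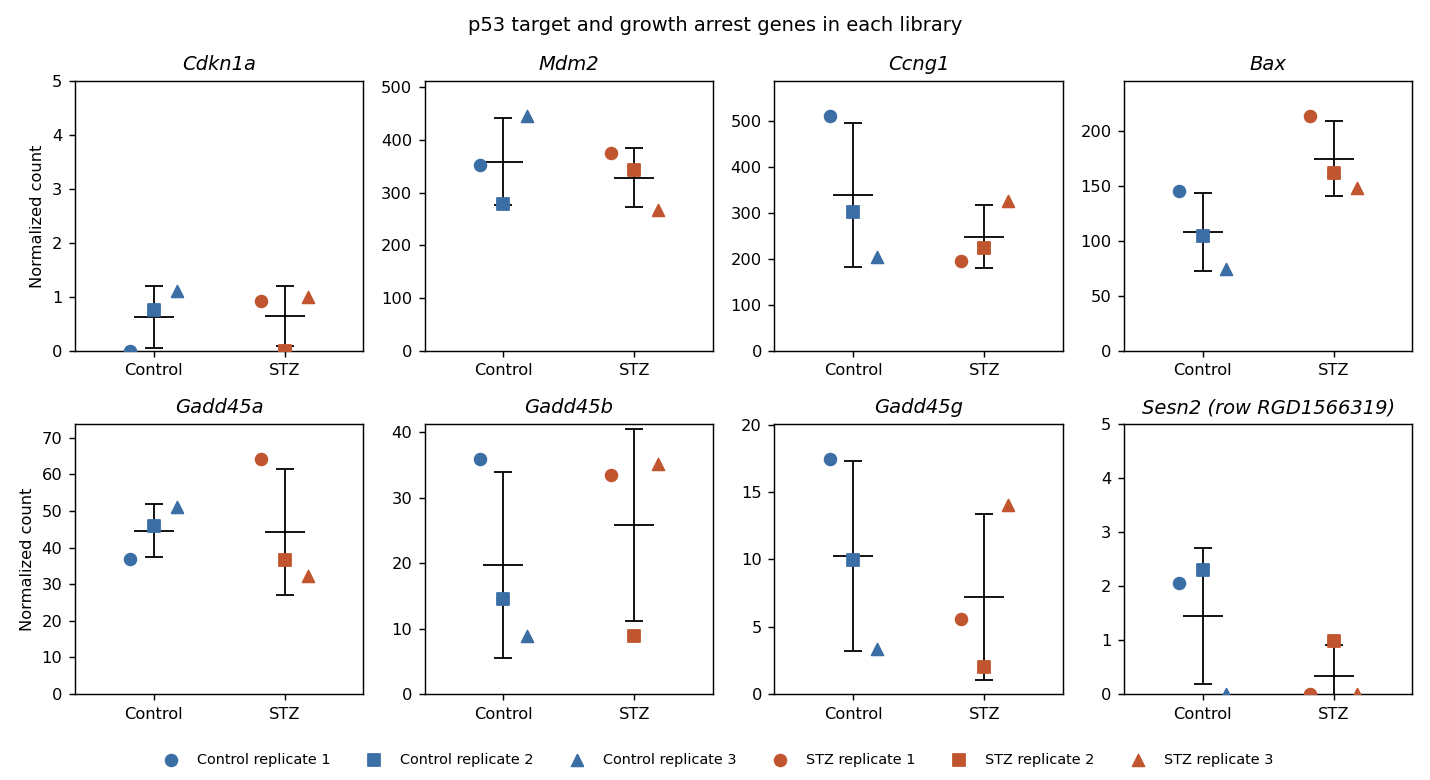
Normalized count (linear axis from 0, a different scale in each panel) of the 8 genes with a row, in each Control (blue) and STZ (orange) library, with the replicate number given by the marker shape and the group mean ± SD (n = 3) as bars that are not drawn below 0. Bax is the gene whose STZ libraries (149 to 214) all lie above its Control libraries (74.6 to 146), while Cdkn1a and Sesn2 lie at 0 to 3 reads.

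Mdm2, which ubiquitinates p53 and is itself its target, was well above background at chr7:56996693-57020926 (rn4). Control 1, 2 and 3 had 353, 279 and 445 normalized counts and STZ 1, 2 and 3 had 376, 343 and 267. The groups overlapped, with the highest value in Control 3 and the lowest in STZ 3. The means were 359 ± 83.2 in Control and 329 ± 55.9 in STZ (SD, n = 3). The log2 fold change was -0.12 ± 0.22 (SE), with a limma adjusted p of 0.903 and an exact permutation p of 0.7 (two-sided). Its 95% interval of -0.60 to 0.37 corresponds to a ratio of 0.659 to 1.29.

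Ccng1, an atypical cyclin G that recruits a phosphatase to Mdm2, varied among the Control libraries more than between the groups. At chr10:25776379-25782754 (rn4) it had 511, 301 and 204 normalized counts in Control 1, 2 and 3 and 195, 224 and 326 in STZ 1, 2 and 3. Control 1 stood highest and the other 5 libraries lay between 195 and 326. The means were 339 ± 157 in Control and 248 ± 69.0 in STZ (SD, n = 3), and the log2 fold change was -0.38 ± 0.31 (SE; 95% interval -1.07 to 0.31; limma adjusted p = 0.672). The log2 fold change was -0.03 without Control 1, -0.69 without Control 3, -0.59 without STZ 3 and -0.22 without STZ 1. The spread of Ccng1 within groups was an SD of 0.54 on the log2 scale, against a median of 0.24 for 2595 features of like mean, and was larger than that of 95.3% of them. The same measure for Mdm2 was 0.30, larger than 66.7% of 2411 such features.

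Bax, the pore-forming BCL2 family protein that opens the outer mitochondrial membrane, was the one member whose Control and STZ libraries did not overlap, as was the case for 20.3% of all features tested. At chr1:95932859-95938184 (rn4) it had 146, 104 and 74.6 normalized counts in Control 1, 2 and 3 and 214, 162 and 149 in STZ 1, 2 and 3. Every STZ library lay above every Control library, by a margin of 149 against 146 at the nearest pair. The means were 108 ± 35.6 in Control and 175 ± 34.3 in STZ (SD, n = 3), a log2 fold change of 0.72 ± 0.26 (SE) and a ratio of 1.65 with a 95% interval of 1.11 to 2.46. The unadjusted limma p was 0.0188 and the adjusted p was 0.212, so Bax did not pass the threshold of 0.05. The exact permutation p was 0.1 (two-sided), the smallest that 3 against 3 libraries allow. Over the 18 alternative settings the log2 fold change ranged from 0.48 to 0.96 and the adjusted p from 0.0602 to 0.457. Within each group the order of Bax ran opposite to the olfactory receptor background, with Bax highest and background lowest in replicate 1, and the part of background in the Bax values was not tested.

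For comparison, the profiles most like that of Bax over the 6 libraries were those of Tceal1 (Pearson r = 0.996), RGD1311122 (r = 0.996) and Odf2l (r = 0.989), given as a description of 6 points that share library and depth. With so few points 294 features had an r over 0.9. For Ccng1 they were RGD1563937 (r = 0.995), Mast3 (r = 0.986) and Srgap3 (r = 0.977), among 66 features over 0.9.

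The 3 Gadd45 genes encode small acidic proteins that bind the stress kinase MAP3K4, PCNA and the Cdk1-cyclin B complex, and only Gadd45a is a classical p53 target. Gadd45a at chr4:96649945-96652243 (rn4) had 36.9, 45.8 and 51.2 normalized counts in Control 1, 2 and 3 and 64.1, 36.6 and 32.1 in STZ 1, 2 and 3. The groups overlapped, with STZ libraries at both ends of the range. The means were 44.6 ± 7.22 and 44.3 ± 17.3 (SD, n = 3), and the log2 fold change was -0.06 ± 0.30 (SE; 95% interval -0.72 to 0.59; limma adjusted p = 0.968).

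Gadd45b at chr7:10289072-10291102 (rn4) had 35.9, 14.5 and 8.90 normalized counts in Control 1, 2 and 3 and 33.4, 8.90 and 35.1 in STZ 1, 2 and 3. High and low libraries occurred in both groups, and the highest was 4.03 times the lowest. The Control 3 value equalled the olfactory receptor background of that library (8.90), so 5 of the 6 libraries lay above background. Its means were 19.8 ± 14.2 in Control and 25.8 ± 14.7 in STZ (SD, n = 3), with a log2 fold change of 0.37 ± 0.58 (SE; 95% interval -0.90 to 1.65; limma adjusted p = 0.868). Gadd45g at chr17:19230895-19232641 (rn4) had 17.4, 9.92 and 3.34 normalized counts in Control 1, 2 and 3 and 5.57, 1.98 and 14.1 in STZ 1, 2 and 3. These rest on 17, 13, 3, 6, 2 and 14 reads, so 4 of the 6 libraries lay above the floor, and the highest value was 8.81 times the lowest. Its means were 10.2 ± 7.05 and 7.20 ± 6.20 (SD, n = 3), with a log2 fold change of -0.52 ± 0.75 (SE; 95% interval -2.17 to 1.12; limma adjusted p = 0.855). An interval that wide allows a change of either sign in both genes.

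Gadd45b and Gadd45g had the same order of libraries within each group, though neither was above the olfactory receptor background in Control 3, nor Gadd45g in STZ 2. Both ran from Control 1 through Control 2 to Control 3, and from STZ 3 through STZ 1 to STZ 2, although STZ 3 and STZ 1 of Gadd45b differed by only 35.1 against 33.4 normalized counts. Across the groups the orders differed, with STZ 1 above Control 2 for Gadd45b and below it for Gadd45g. Gadd45a ran from Control 3 to Control 1 and was lowest in STZ 3. The within-group SD on the log2 scale was 1.01 for Gadd45b, larger than that of 91.9% of 3769 features of like mean, and 1.11 for Gadd45g, larger than 79.8% of 3784. For Gadd45a it was 0.40, larger than 64.6% of 3803. The sum of the 3 genes was 90.2, 70.2 and 63.4 normalized counts in Control and 103, 47.5 and 81.3 in STZ. Gadd45a made up 40.9% of that sum in Control 1 and 80.7% in Control 3, and 39.5% in STZ 3 and 77.1% in STZ 2, so the make-up of the family spanned a like range in both groups.

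**Figure D2:**
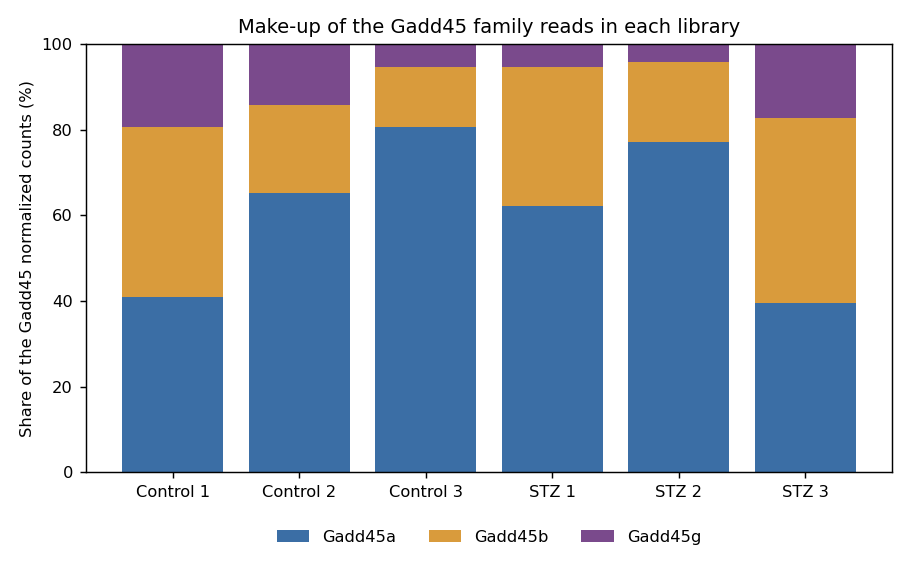
Share (%) of the summed Gadd45 normalized counts taken by Gadd45a (blue), Gadd45b (yellow) and Gadd45g (purple) in each of the 6 libraries, with no division by transcript length. The Gadd45a share spans 40.9% to 80.7% in Control and 39.5% to 77.1% in STZ.

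Sesn2, a stress-induced sestrin that restrains mTORC1, was at or under the floor in all 6 libraries. Under RGD1566319 at chr5:152639950-152651043 (rn4) it had 2.05, 2.29 and 0 normalized counts in Control 1, 2 and 3 and 0, 0.989 and 0 in STZ 1, 2 and 3, from 5 reads in Control and 1 in STZ. Its paralogs were read well above the floor and are named here after their values were seen. Sesn1, a p53 target, had means of 78.8 ± 24.2 in Control and 71.7 ± 11.3 in STZ (log2 fold change -0.10; limma adjusted p = 0.933). Sesn3, which is driven by FoxO factors, had 46.1 ± 13.7 and 66.0 ± 5.28 (SD, n = 3). All STZ values of Sesn3 lay above all its Control values, as for 10.1% of all features tested. Its log2 fold change was 0.55 ± 0.26 (SE), at a limma adjusted p of 0.371.

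Of the 9 genes, 6 had a mean of at least 5 normalized counts and were tested. limma called 0 of the 6 at an adjusted p under 0.05, beside 2.10% of all features tested (283, of which 158 or 1.17% were higher and 125 or 0.927% lower in STZ). edgeR and DESeq2 on the recovered reads also called 0, with no adjusted p from DESeq2 for Gadd45g. At an unadjusted p under 0.05 limma gave 1 of the 6, Bax, beside 14.7% of all features. The groups did not overlap in 1 of the 6, beside 20.3% of all features. 2 of the 6 log2 fold changes were above zero and 4 below, with a median of -0.09, against 0.01 over all features tested.

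**Figure D3:**
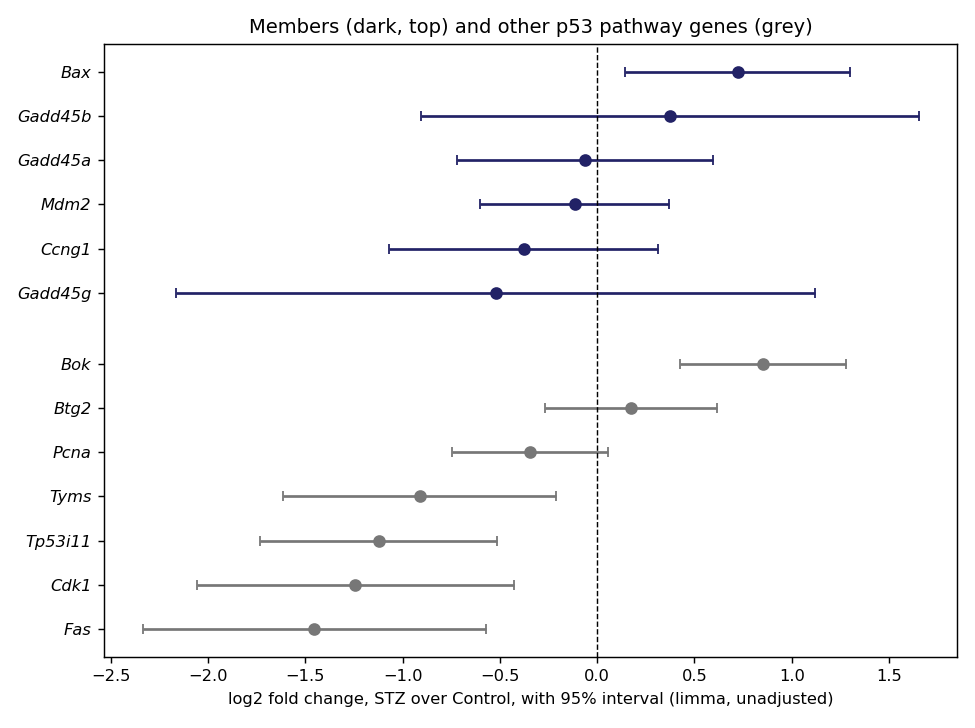
Log2 fold change of STZ over Control with its unadjusted 95% limma interval for the 6 members tested (dark) and 7 other genes of the pathway (grey), the dashed line marking no change. Bax (0.72, interval 0.14 to 1.30) is the member whose interval does not include zero, and no gene drawn passed the adjusted threshold. The 7 grey genes were picked by hand, Fas and Tp53i11 after their values were seen, and do not stand for the pathway. Among them the intervals of Tp53i11, Fas, Bok, Cdk1 and Tyms do not include zero. Of all 74 pathway genes tested, 8 had an unadjusted limma p under 0.05.

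The rest of the pathway was read through 8 lists with 114 genes, of which 83 had a row of their own, 6 were merged with an overlapping gene and 25 were not analysed here. limma called 0 of the 74 tested at an adjusted p under 0.05, beside 2.10% of all features, edgeR 0 and DESeq2 2, Bok and Tp53i11, beside 2.13% of features by edgeR and 6.08% of the 9819 to which DESeq2 gave an adjusted p. At an unadjusted p under 0.05 limma gave 8 of the 74, beside 14.7% of all features. Of the 74, 37 lay above zero and 37 below, with 5 higher in STZ without overlap (10.1% of all features) and 11 lower (10.3%). The median log2 fold change was -0.00.

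The core list holds the regulators and the kinases of the pathway. Mdm4, the inhibitory partner of Mdm2, had means of 107 ± 25.3 and 105 ± 19.7 (adjusted p = 0.997), and the deubiquitinase Usp7 had a log2 fold change of 0.44 (adjusted p = 0.426). Rfwd2, a further ubiquitin ligase for p53 also named Cop1, had 85.6 ± 7.74 and 138 ± 24.1 (SD, n = 3). It was higher without overlap, as were 10.1% of all features tested. Its log2 fold change was 0.67 ± 0.21 (SE) with a limma adjusted p of 0.146. The row of Rfwd2 spans 2542 bases, and how much of the gene that covers was not tested. 0 of the 10 core genes tested were called, 6 lay above zero and the median log2 fold change was 0.05.

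Among 19 other p53 targets tested, 0 were called, 8 lay above zero, 11 below, and the median was -0.22. The 4 with the highest mean were the antiproliferative gene Btg2 (1892 ± 279 and 2133 ± 302 normalized counts, log2 fold change 0.17), the desmosomal gene Perp (0.02), Ei24 (0.04) and the phosphatase gene Dusp1 (0.22), whose groups all overlapped. The largest differences were below zero and were picked out after their values were seen. Fas, the death receptor, was read at 25.6, 35.1 and 23.4 normalized counts in the Control libraries and at 7.43, 6.92 and 16.1 in STZ. The STZ values of Fas rest on 8, 7 and 16 reads, and STZ 2 was close to its olfactory receptor background (5.93). The groups did not overlap, and the log2 fold change was -1.45 ± 0.40 (SE) at a limma adjusted p of 0.0999. Tp53i11 had 111, 175 and 116 in Control and 85.4, 52.4 and 47.2 in STZ. These groups did not overlap either, the log2 fold change being -1.12 ± 0.28 (SE) with a limma adjusted p of 0.067. Tp53i11 passed in 6 of 18 alternative settings and Fas in 0 of 17. The DNA repair gene Xpc (-0.41) and the ubiquitin ligase gene Trim32 (-0.27) were the other 2 below Control without overlap. This made 4 of the 19 lower without overlap and 0 higher, beside 10.3% and 10.1% of all features tested.

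The cyclin-dependent kinase inhibitors other than p21 had 0 of 6 called and no gene without overlap. Cdkn1b, which encodes p27, had means of 303 ± 107 and 282 ± 100 normalized counts (log2 fold change -0.10; limma adjusted p = 0.948), and the retinoblastoma family genes Rbl2, Rb1 and Rbl1 had log2 fold changes of 0.12, 0.27 and 0.29.

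The next lists hold the genes of proteins that p21 binds and genes of the dividing cell. Of 6 p21 partners tested 0 were called, 4 lay below zero and 3 of these without overlap, beside 10.3% of all features lower without overlap, with a median of -0.44. Cdk1, the mitotic kinase, was read at 21.5, 22.9 and 30.1 normalized counts in the Control libraries and at 8.36, 7.91 and 14.1 in STZ, a log2 fold change of -1.24 ± 0.37 (SE) with a limma adjusted p of 0.126. The STZ values of Cdk1 rest on 9, 8 and 14 reads, and STZ 2 was close to its olfactory receptor background (5.93). The replication clamp gene Pcna had 681 ± 85.4 and 535 ± 56.1 (log2 fold change -0.35; adjusted p = 0.426) and the cyclin gene Ccnd1 was at 54.3, 76.3 and 66.8 in Control and 52.9, 36.6 and 46.2 in STZ (-0.53; adjusted p = 0.345). Cdk2 lay on the other side at 0.45 with overlap. Of 8 proliferation genes 0 were called, 6 lay below zero and 2 of them without overlap, beside the same 10.3%, with a median of -0.33. These were the thymidylate synthase gene Tyms (34.1 ± 9.96 and 17.2 ± 2.16, -0.91, adjusted p = 0.191) and the kinase gene Aurka (42.6 ± 8.42 and 28.5 ± 1.59, -0.55, adjusted p = 0.360), while the helicase genes Mcm6 and Mcm2 were at 0.29 and 0.25.

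In the BCL2 family, to which Bax belongs, 0 of 8 tested were called and 4 lay on each side of zero. Bok, a Bax-like effector, came nearest to the threshold of any pathway gene tested. Its means were 1002 ± 71.1 normalized counts in the Control group and 1826 ± 318 in the STZ group (SD, n = 3), without overlap, at a log2 fold change of 0.85 ± 0.19 (SE) and a limma adjusted p of 0.0516. Bok passed in 8 of 18 alternative settings, with adjusted p-values from 0.000666 to 0.212. The survival gene Bcl2l2 was the other one higher without overlap (0.34), and the effector Bak1 was lower without overlap (-0.53; limma adjusted p = 0.443), named after its values were seen. In this list 2 of 8 were thus higher and 1 lower without overlap, beside 10.1% and 10.3% of all features tested. Bcl2l1 and Bad, a survival gene and its antagonist, were at -0.02 and -0.15.

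The Gadd45 partners, mainly kinases of the p38 and JNK cascades, had 0 of 7 called and all groups overlapped, with 6 of 7 above zero and a median of 0.40. Map2k6, an activator of p38, had 44.6 ± 25.1 and 76.0 ± 6.78 normalized counts (log2 fold change 0.88; limma adjusted p = 0.232). Mapk14, which encodes p38 alpha, was at 0.36, Map2k3 at 0.40 and Gadd45gip1, which encodes a Gadd45-binding protein, at -0.20. Among 10 sestrin and stress arrest genes 0 were called and 5 lay on each side of zero. The integrated stress response genes Asns, Atf4 and Ppp1r15a were at -0.17, -0.37 and 0.17. The antiproliferative gene Btg1 was higher without overlap (285 ± 39.8 and 398 ± 50.9, 0.48, limma adjusted p = 0.264), as were 10.1% of all features tested. Ddit4, which encodes the mTORC1 inhibitor REDD1, was at 0 reads in every Control library and at 3 or fewer in every STZ library, so it was not tested.

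**Figure D4:**
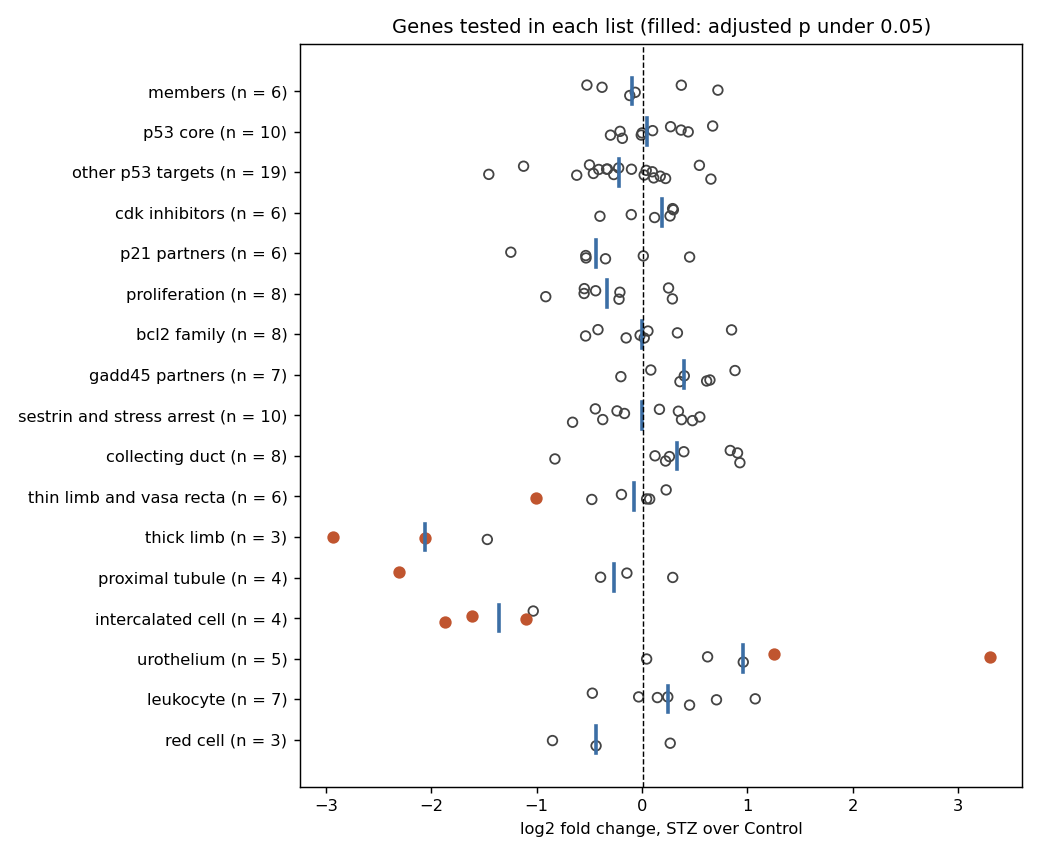
Log2 fold change of STZ over Control for each tested gene of the members, the 8 pathway lists and the 8 cell type marker lists, with the list median as a bar and filled points for adjusted p under 0.05. All points of the members and pathway lists are open, and the 9 filled points are cell type markers.

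Markers of several other kidney cell types differed between the groups. Over all features tested, 1.17% were called higher and 0.927% lower, and 10.1% were higher and 10.3% lower without overlap. The collecting duct list, which defines this tissue, summed to 11062 to 19049 normalized counts in Control and 18630 to 35686 in STZ, with 0 of 8 called. Aqp2, Aqp3 and Aqp4 made up most of that sum in every library. Aqp2 (log2 fold change 0.84) and Scnn1g (0.93) were higher without overlap and Hsd11b2 (-0.83) was lower without overlap. The groups of the other genes tested overlapped. Thick limb markers summed to 1099 to 1886 in Control and 210 to 597 in STZ, with 2 of 3 called lower, Umod (-2.93) and Egf (-2.06). Intercalated cell markers summed to 475 to 775 and 176 to 241, with 3 of 4 called lower. Of 4 proximal tubule markers tested 1 was called lower, Kap (174, 195 and 283 normalized counts in Control, 65.0, 20.8 and 55.2 in STZ), which made up most of the list's sum in every Control library. The groups of Lrp2 (log2 fold change 0.29) and Slc22a6 (-0.39) overlapped. So did those of the row Slc17a2 (-0.14), which was matched to Slc34a1 only through a RefSeq synonym and may be another gene. Urothelium markers summed to 85.4 to 132 and 440 to 517, with 2 of 5 called higher, Upk3a (3.30, with means of 35.3 and 344) and Upk1b (1.25). Upk3a made up most of the sum in every STZ library. Upk2 (0.96) was higher without overlap but not called, and the groups of Upk1a (0.04) and Upk3b (0.62) overlapped. Thin limb and vasa recta markers summed to 219609 to 280391 and 232034 to 291652, with 1 of 6 called lower, and of the leukocyte and red cell markers 0 of 7 and 0 of 3 were called. Fewer cells of a type and less RNA per cell cannot be told apart in tissue RNA, and the part of these markers in the values of Bax, Fas, Bok and the other genes was not tested.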

How the data were processed

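RNA of 6 IM tip samples (Control n = 3, STZ n = 3) was analysed. The authors aligned reads to rn4 with STAR 2.3.1t, counted uniquely mapped reads per gene (Ensembl RGSC 3.4) and normalized them with DESeq 1.16.0. The deposited signal is the count of a feature divided by 1 size factor per library, called a normalized count here. Neither the program that counted reads nor whether it used strand is given in the sources used here, so antisense and overlapping genes may share reads, and 527 merged features were not counted as single genes. Dividing by each library's smallest step gave whole reads for 100% of values (tolerance 1e-06). Coordinates of genes are rn4 and those of promoters are GRCr8 (RefSeq), and the assemblies were not mixed.

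The main test was limma 3.58.1 (R 4.3.3), run after adding a pseudocount of 1 and taking log2, with an intensity trend, over 13486 features with a mean of at least 5, Benjamini-Hochberg adjusted, threshold 0.05. edgeR 4.0.16 (quasi-likelihood test, TMM) and DESeq2 1.42.0 on the recovered reads were among 18 alternatives, with other pseudocounts (0.5, 5), minimum means (1, 20, none), scalings and fits, and each library left out. On simulated data with 200 of 13486 features changed by a log2 of 2, limma recovered 74% with 7 false calls. The simulation gave every feature the same dispersion and a change larger than that of any member. It therefore does not measure the power to call the members. Named genes were all members, list genes past the threshold, the 4 highest means of each list, cell type markers, and the 3 profiles most like the 2 members of smallest p; others are said to be chosen later. 1 listed gene is not reported here. The members and lists were chosen with earlier results of these data known. Figures were made with Python 3.11.15, pandas 2.3.3, scipy 1.17.1, numpy 2.4.6 and matplotlib 3.10.9.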

Additional observations from a re-analysis of the deposited data

How the results depend on the processing

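The 6 members tested stayed uncalled in all 18 alternatives. The log2 fold change of Bax kept its sign in all of them and so did that of Ccng1, at -0.69 to -0.03 with 1 library left out. Mdm2 changed sign without Control 3 (0.052) or STZ 3 (0.027), within a leave-one-out range of -0.28 to 0.052. Gadd45a changed sign in edgeR (0.0015) and, leaving out 1 library each, ranged from -0.36 to 0.13. Gadd45b ranged from -0.050 (without Control 3) to 0.98 and Gadd45g from -1.11 to 0.058 (without STZ 2), and Gadd45g has no value at a minimum mean of 20. The lowest adjusted p of Bax, 0.0602, came from the replicate block.

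The 283 features called became 522 with quantile normalization, 31 in limma without an intensity trend, 597 in DESeq2 and 561 with the replicate block, and 88 to 352 with 1 library left out. Pathway genes called went from 0 to 1 with a pseudocount of 5 (Bok) and with equal library totals (Bok), and to 2 (Bok and Tp53i11) with a minimum mean of 20, no filter, quantile normalization, DESeq2 and the replicate block. Leaving out 1 library gave 0 to 1, namely Map2k6 without Control 3, Tp53i11 without STZ 1 and Bok without STZ 3. The 9 cell type markers called became 1 in limma without the trend (Upk3a), and 5 to 8 with 1 library left out: Upk3a, Umod, Egf and Atp6v1b1 held in 6 of 6, Kap was lost without Control 2 and Atp6v0d2 without STZ 2, Plvap and Upk1b held without Control 3 alone, and Slc4a1 in 0 of 6. The causes were not tested. Same-numbered libraries correlated in their deviations from group means at 0.39, -0.06 and 0.32 over 9315 features. Control 2 and STZ 2 correlated best with another number, so the numbers were not taken as pairs. The olfactory receptor background was nonetheless alike in Control and STZ libraries of the same number, at 2.05 and 1.86, 6.10 and 5.93, and 8.90 and 9.03 normalized counts. What libraries of the same number share was not tested. Cdkn1a and Sesn2, at 3 reads or fewer in every library, had too few reads at this depth for a fold to be computed. The cause of their low counts was not tested.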
